A study of Mus musculus with 4 samples.

Results

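The 46 genes described here code for proteins of the cytosolic ribosome (the Rpl, Rplp, Rps and Rpsa families). They were taken by their Ensembl IDs from a list, not by their measured values, and all 46 were found among the 53465 IDs of the count table. The list was, however, chosen with earlier results of these data known. The list is shorter than the 77 such genes that RefSeq names by symbol. In the read counts below, the family means these 46 genes alone. The table and the reference used here pair 0 of these IDs with gene symbols. Single genes are therefore given by ID or by rank, and members of the large and the small subunit were not compared here. Levels of Usp5, Ythdf1, liver cell markers and other translation genes were not analysed here for the same reason, so the labels of guide and cell line were not checked against them.

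The cells were Hepa 1-6, a mouse hepatocellular carcinoma line. Cells with a control guide (sgcontrol, genotype WT) were set against cells with a guide for Usp5 (sgUsp5, labelled a Usp5 knockdown). USP5 is a protease that removes ubiquitin chains, and the study's title links it to the stability of YTHDF1 and to mTORC1. From each guide, 1 library was made from the lysate without an antibody (input, 10% of the lysate) and 1 from the RNA recovered with a CST antibody to YTHDF1 (RNA immunoprecipitation, RIP), which gave 4 groups of 1 library. No control precipitate was used here, and the labels used here do not say whether the cells of a guide came from 1 clone. The 4 libraries held 29898171 to 33941019 counts.

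YTHDF1 is a cytoplasmic protein that binds mRNA carrying N6-methyladenosine and is known for its part in translation. Ribosomal protein mRNAs are short, stable and among the most abundant messages of growing cells. Their translation is known to be under mTORC1. They begin with a cytosine followed by a run of pyrimidines, the 5′ terminal oligopyrimidine (TOP) motif, which the mTORC1 target LARP1 binds when mTORC1 is inactive.

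The gene starts that RefSeq lists for this family show what such a tract looks like. In the RefSeq table (GRCm38.p6) 77 mouse genes carry a cytosolic ribosomal protein symbol, 46 of the large and 31 of the small subunit, and 57 of them have a start sequence. The 46 large subunit symbols are another set than the 46 genes described here, of which 0 were matched to an entry. A C at the annotated start followed by 4 bases that are each C or T, on the strand of the transcript, was found in 13 of the 57 genes (22.8%) and in 2.97% of 26968 other genes. A run of at least 8 such bases within 50 bases of the start was found in 84.2% of the 57 genes and in 39.2% of the others. RefSeq starts need not be the start used in these cells. The windows below run from 10 bases before the annotated start to 20 from it, with the tract from the start in capitals. They were chosen for their tract lengths, and Rps6 because its protein, S6 of the small subunit, is phosphorylated downstream of mTORC1. Positions are on the minus strand at chr14:18270967-18270996, chr2:39005112-39005141, chr17:27635225-27635254 and chr4:86857348-86857377 in that order.
Rpl15: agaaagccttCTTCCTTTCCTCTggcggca
Rpl35: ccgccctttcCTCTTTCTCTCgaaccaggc
Rps10: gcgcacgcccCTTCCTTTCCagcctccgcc
Rps6: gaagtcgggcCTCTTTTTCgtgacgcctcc

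Ribosomal protein genes are also known for their many processed pseudogenes, copies of the mRNA inserted in the genome. RefSeq lists 315 pseudogenes named after 62 of the 77 genes, up to 23 for a single gene (Rpl31 and Rps12), and 8 of the 315 are marked as transcribed. Only symbols made of a gene's symbol and the suffix -ps were counted, so copies under any other name are left out. How the authors' counting treated reads that match several places is not given in the sources used here. A read that matches a gene and its copies may have been lost or counted for a copy. The part of such reads in the values below was not tested. All values are to be read as reads counted for these IDs.

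The 46 genes together took 690431 reads in the control input, or 2.24% of counts (95% Wilson interval 2.24 to 2.25). The Usp5 input held 722424 reads of the family, or 2.28% (2.27 to 2.28). In the RIP libraries the shares were 1.94% (1.93 to 1.94, 657446 reads) with the control guide and 1.81% (1.80 to 1.81, 539679 reads) with the Usp5 guide. The family's share was thus lower in each RIP library than in the input of the same cells. Intervals given here reflect the number of reads alone. The reads were not tagged per molecule before PCR, so several can stem from the same cDNA.

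Every one of the 46 was well covered, with at least 541 reads in every library. The median gene had 265 CPM (counts scaled to library size with TMM factors) in the control input, 297 in the Usp5 input, 230 in the control RIP and 217 in the Usp5 RIP. By mean CPM over the 4 libraries, which is not corrected for gene length, 6 of the 46 were among the 100 highest genes and 18 among the 500 highest. The same 3 genes had the most reads of the family in all 4 libraries. They held 36.9% and 33.2% of the family's reads in the control and Usp5 inputs and 27.7% and 28.4% in the control and Usp5 RIP libraries. Reads of the family were thus spread more evenly over its members in the RIP libraries.

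The first question was how far these mRNAs were recovered with the YTHDF1 antibody. With the control guide the ribosomal protein genes were slightly under-represented: the median log2 RIP over input was -0.30, or 1.23-fold lower (quartiles -0.75 and 0.26). The values ran from -1.05 to 1.10, with 31 genes below input and 15 above. Over all 12927 genes compared, those with a mean of at least 1 CPM, the median was 0.03 and 48.8% lay below input, beside 67.4% of the members. With the Usp5 guide the median was -0.40, or 1.31-fold lower (quartiles -0.81 and -0.09), beside 0.02 over all genes. Here 38 of the 46 (82.6%) were below input, where 49.1% of all genes were, and 8 were above, with values from -1.49 to 0.73.

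Since the family is abundant, each member was also set against the other genes within 0.5 log2 CPM of its own mean level, which were between 23 and 1859 genes. With the control guide, 28 of the 46 lay below the median of these neighbours, by a median of -0.20 on the log2 scale. With the Usp5 guide, 35 lay below it, by a median of -0.29. As single genes the members lay within the range of their neighbours: 0 of the 46 with the control guide and 1 with the Usp5 guide lay outside the central 95% of them.

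**Figure D1:**
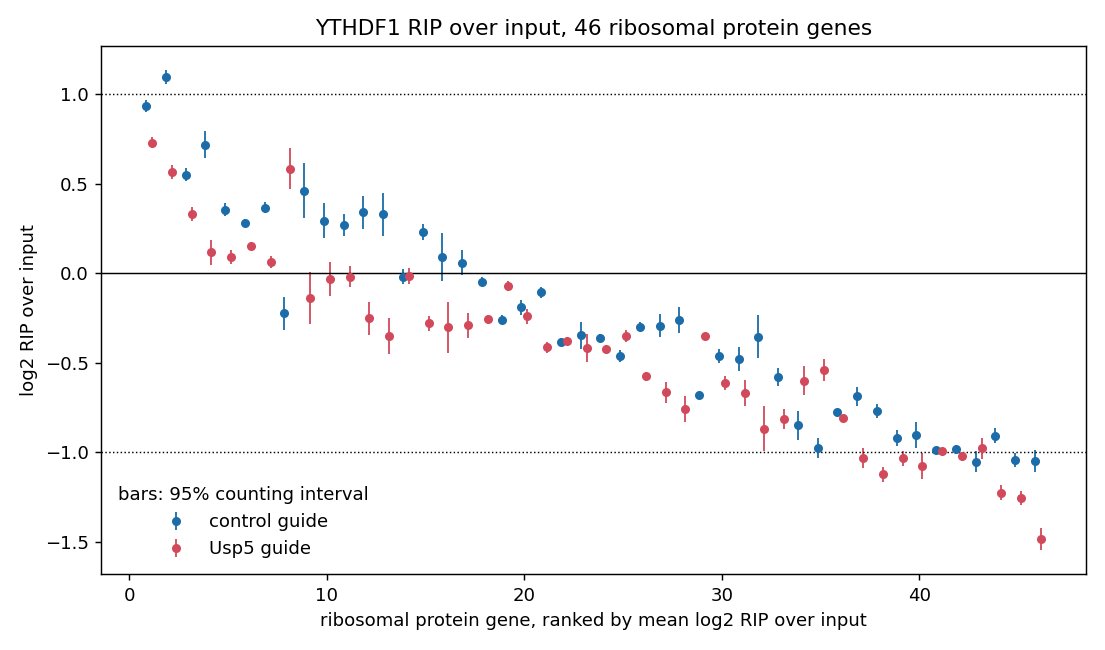
Log2 RIP over input (vertical axis) of the 46 ribosomal protein genes, ranked by the mean of both guides (horizontal axis); points are single libraries' ratios, bars 95% counting intervals, dotted lines 2-fold. Values fall from 1.10 at the highest to -1.49 at the lowest, and most Usp5 points lie under the control point of the same gene.

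**Figure D2:**
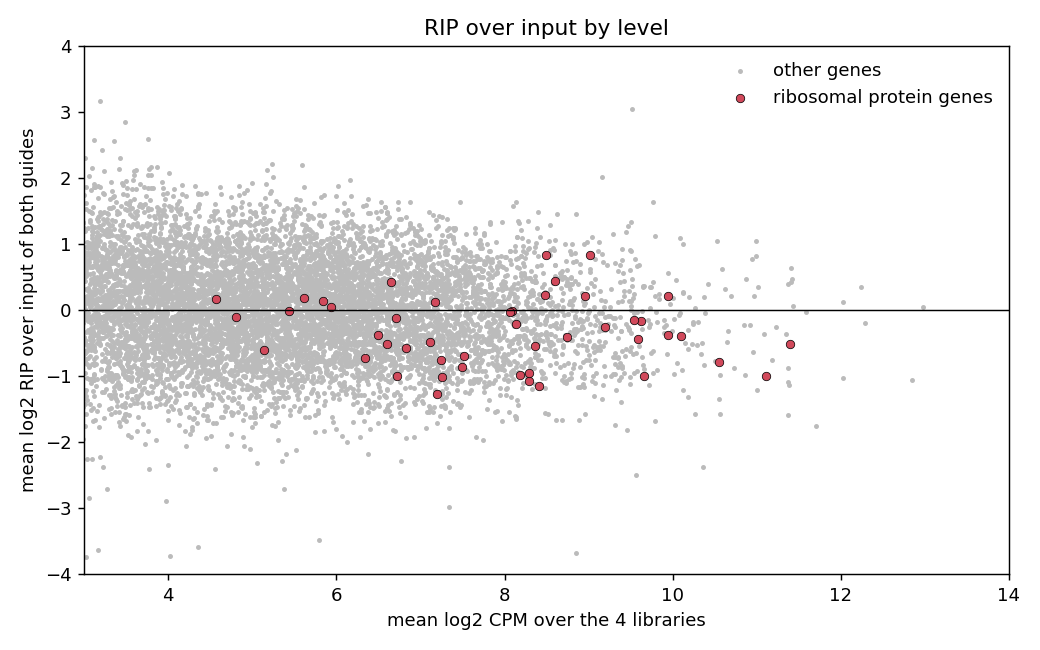
Mean log2 RIP over input of both guides (vertical axis) against mean log2 CPM over the 4 libraries (horizontal axis) for the ribosomal protein genes (red) and other genes (grey); the axes leave out 4232 of the 12927 genes, 4221 of them below a log2 CPM of 3. The red points lie inside the grey cloud, more of them under 0 than above.

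With 1 library a group there is no test within a guide, and members were called by size alone: 2-fold or more, and a 95% counting interval on the same side of 0. With the control guide 1 member was at least 2-fold higher in the RIP, where 18.2% of all genes were, and 3 were lower, where 15.2% were. With the Usp5 guide 0 were higher (15.8% of all genes) and 8 lower (13.8%). The 2-fold line cut through a group of close values: the nearest members inside and outside it had log2 ratios of -1.04 and -0.99 with the control guide and -1.02 and -0.99 with the Usp5 guide. Scaling by library totals, in which the median of all genes was 0.21 and 0.15, gave 2 higher and 0 lower members with the control guide and 0 higher and 3 lower with the Usp5 guide. The shares of all genes past 2-fold with library totals were not counted here. The distances from genes of like level were the same to 2 decimals with TMM and library totals. This follows from the calculation, since a scaling shifts all ratios of a comparison alike, and is no check of the result.

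RIP was then tested against input over both guides with edgeR's quasi-likelihood test, with the guide as a block and p-values adjusted by Benjamini-Hochberg over all 12927 genes. The fit has 1 residual degree of freedom, and edgeR moderates each gene's spread towards a trend over all genes. Its p-values thus rest in part on this shared trend. They measure only the spread between these libraries, which may be technical. Any difference in recovery between the guides counts as error in the fit. At an adjusted p under 0.05, 21 of the 46 ribosomal protein genes (45.7%) were lower in the RIP, where 11.3% of all genes were. Higher in the RIP were 3 of the 46 (6.52%), where 10.1% of all genes were. Among the 6785 other genes within 0.5 log2 CPM of any member, 19.5% were lower and 16.8% higher. These genes were not matched in number to the members' levels. Their median SE was 0.218, beside 0.145 for the members, so the shares compare sets of unequal precision. Below, values given for genes of like level are of this pooled set. Distances of members from genes of like level use each member's own neighbours. Library totals gave 14 lower and 4 higher members beside 7.50% and 13.0% of all genes.

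The 21 genes that fell had log2 fold changes from -1.27 to -0.38 and edgeR adjusted p-values from 9.5e-05 to 0.041. All 21 were below input with each guide, and 9 of them by at least 2-fold with at least 1 guide. The shared sign largely follows from the call, which used the same libraries, and is no separate support. The share of other called genes past 2-fold was not counted here. The 3 genes that rose had log2 fold changes from 0.44 to 0.83 and adjusted p-values up to 0.035. Of the 22 others, 9 had values above 0 and 13 below.

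The highest member by its mean over both guides was ENSMUSG00000044533. It had 10757 reads in the control input, 25680 in the control RIP, 12352 in the Usp5 input and 21098 in the Usp5 RIP, or 377, 720, 401 and 666 CPM in that order. Both RIP libraries were thus above both inputs. Log2 RIP over input was 0.93 (counting interval 0.90 to 0.97) with the control guide and 0.73 (0.70 to 0.76) with the Usp5 guide. The edgeR test gave 0.83 (SE 0.12, adjusted p = 0.0013).

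The next highest, ENSMUSG00000030744, had 7024 reads in the control input, 18781 in the control RIP, 9099 in the Usp5 input and 13871 in the Usp5 RIP, or 246, 526, 296 and 438 CPM. It was the only member at least 2-fold higher in a RIP library, with a log2 ratio of 1.10 (1.06 to 1.14) with the control guide. With the Usp5 guide the ratio was 0.57 (0.53 to 0.60). Over both guides the test gave 0.83 (SE 0.15, adjusted p = 0.0039). Of the other genes within 0.5 log2 CPM of its own level, it stood above 96.3% with the control and 84.0% with the Usp5 guide.

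The lowest member was ENSMUSG00000057841. It had 5748 reads in the control input, 3471 in the control RIP, 7906 in the Usp5 input and 2907 in the Usp5 RIP, or 201, 97.3, 257 and 91.7 CPM. Its log2 RIP over input was -1.05 (-1.11 to -0.99) with the control guide, or 2.07-fold lower, and -1.49 (-1.55 to -1.42) with the Usp5 guide, or 2.80-fold lower. The edgeR test gave -1.27 (SE 0.17, adjusted p = 0.00079). Both inputs were above both RIP libraries.

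The next lowest, ENSMUSG00000025290, had 13858 reads in the control input, 8400 in the control RIP, 16247 in the Usp5 input and 7012 in the Usp5 RIP, or 486, 235, 528 and 221 CPM. The log2 ratios were -1.04 (-1.08 to -1.01) and -1.25 (-1.30 to -1.21) with the control and Usp5 guides. The edgeR test gave -1.15 (SE 0.13, adjusted p = 0.00043). These last genes were the only 2 members at least 2-fold lower in the RIP with both guides.

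The order of the members was much the same with either guide. The ratios of the guides share no library, and over the 46 genes Pearson's r between them was 0.86 and Spearman's rho 0.88. Over the 6785 genes of like level they were 0.80 and 0.80, so that other genes also kept their order. These are descriptions over genes, which are not replicates. With both guides 7 members were above input and 30 below, and 9 (19.6%) went in opposite directions, where 18.5% of the genes of like level did. By counting intervals 29 (63.0%) were below input with both guides and 7 (15.2%) above with both, where 37.3% and 34.8% of the genes of like level were. Intervals of the latter were wider: with the control guide their median half-width was 0.094, beside 0.043 for the members. They were also not matched in number to the members' levels, and their median log2 RIP over input was -0.03 with each guide. The medians of the members' own neighbours ran from -0.26 to 0.05 with the control guide. The 4 members on opposite sides by interval (8.70%) compare with 10.3% of the genes of like level.

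RIP over input did not run in step with level. The 15 members with the lowest levels (log2 CPM 4.57 to 7.11) had a median of -0.22 with the control and -0.35 with the Usp5 guide. The middle 16 had -0.63 and -0.72, and the highest 15 (8.60 to 11.4) -0.30 and -0.35. Against genes of like level the medians of these groups were -0.21, -0.51 and -0.06 with the control and -0.36, -0.62 and -0.23 with the Usp5 guide. The edgeR test called 3, 10 and 8 members lower in these groups. These calls also depend on precision: the SE was 0.310 for the member with the lowest level and 0.0958 for that with the highest. Members of like level could differ widely in recovery, as the spread of red points at any level in the plot of RIP over input by level shows.

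The second question was whether the level of these mRNAs differed with the Usp5 guide. Between the inputs the median log2 ratio of Usp5 over control was 0.07, or 1.05-fold higher (quartiles -0.08 and 0.24), beside -0.01 over all genes. Above control were 30 of the 46 (65.2%, beside 48.1% of genes of like level), and 32 lay within 1.2-fold. The share of other genes within 1.2-fold was not counted here. Against genes of like level 34 members were above the neighbours' median, by a median of 0.13. In such bulk samples a difference in RNA per cell and one in the mix of cells cannot be told apart. There is no replicate check for a guide, so these values have no test.

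By size, 0 members were at least 2-fold higher in the Usp5 input (12.4% of all genes) and 1 was lower (12.2%). Among the genes of like level these shares were 1.90% and 1.97%. The inputs of the 1 lower member held 1881 (control) and 993 (Usp5) reads, a log2 ratio of -1.03 (-1.14 to -0.92). Its RIP libraries held 2013 and 1535 reads, with a log2 ratio of -0.22. The input ratio was thus far wider than the RIP ratio, and with library totals it was under 2-fold. The member with the highest ratio between inputs had 948 reads with the control and 1744 with the Usp5 guide, a log2 ratio of 0.77 (0.66 to 0.89). Its RIP libraries held 1489 and 1410 reads.

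The most read member of the control input went from 106859 reads there to 85039 in the Usp5 input, a log2 ratio of -0.44 (-0.45 to -0.43). Its RIP libraries held 83450 and 68659 reads. This gene weighs on the sum of the family: summed over the 46, the log2 ratio between the inputs was -0.04, while the median of the members was 0.07. The sign of so small a shift thus depended on how the members were weighted.

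The RIP libraries differed less than the inputs for these genes as for others. The median log2 ratio of Usp5 over control was -0.11, or 1.08-fold lower (quartiles -0.23 and -0.06), beside -0.01 over all genes, and 38 of the 46 were below control (82.6%, beside 51.5% of genes of like level). The SD over members was 0.29 between the inputs and 0.13 between the RIP libraries. Over the genes of like level it was 0.46 and 0.28, so that the narrowing was shared. Within 1.2-fold lay 39 members, and the share of other genes was not counted here. No member reached 2-fold in either direction, where 4.53% of all genes were higher and 4.64% lower, and 0.162% and 0.265% of those of like level. Against their neighbours 38 members were lower, by a median of -0.13.

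The lowest ratio between the RIP libraries belonged to a member with 5837 reads in the control and 3988 in the Usp5 RIP, a log2 ratio of -0.38 (-0.44 to -0.32). Its inputs held 6983 and 6818 reads. The highest belonged to a member with 7084 reads in the control and 6873 in the Usp5 RIP, a log2 ratio of 0.13 (0.08 to 0.18) once the depth of the libraries is taken into account. Its inputs held 10719 and 13670 reads.

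**Figure D3:**
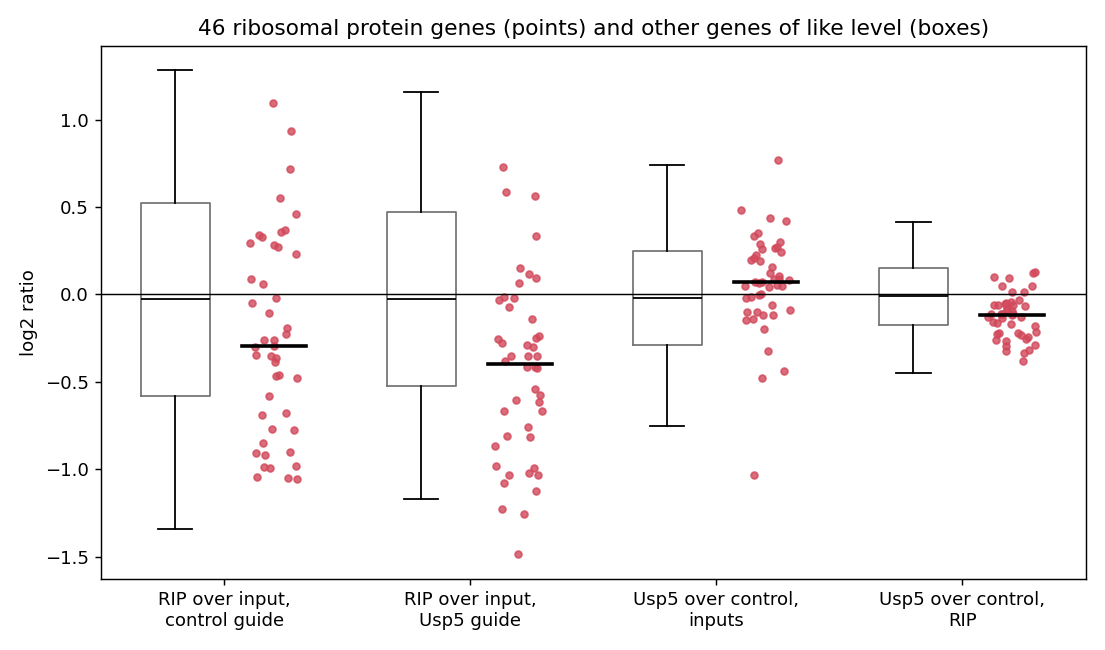
Log2 ratios (vertical axis) of the 46 ribosomal protein genes (red points, black bar at their median) in the 4 comparisons, beside the 6785 other genes of like level (boxes: quartiles and median, whiskers: 5th and 95th percentile). The medians of the family are -0.30, -0.40, 0.07 and -0.11, and both points and boxes are narrowest between the RIP libraries.

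Whether the recovery with YTHDF1 differed with the guide was taken as the difference of the log2 ratios of RIP over input, Usp5 minus control. It uses the same 4 libraries as the comparisons above and adds no separate measurement. Scaled ratios describe the make-up of a library, not the amount of RNA recovered, and the amount of YTHDF1 was not measured here. The median was -0.22, or 1.16-fold lower with the Usp5 guide (quartiles -0.35 and -0.04), beside a median near 0 over all genes (-0.0043). The difference was below 0 for 37 members (80.4%), where 50.3% of all genes were, and above 0 for 9. By counting intervals 34 were below and 6 above, where 37.9% and 39.1% of the genes of like level and 38.2% and 37.6% of all genes were. These sets differ in precision: the median half-width was 0.061 for the members, 0.133 for genes of like level and 0.235 for all genes. No member differed by 2-fold, with values from -0.68 to 0.81. Of all genes 13.4% were at least 2-fold higher and 13.8% lower, and of the genes of like level 2.79% and 2.56%. Against genes of like level 39 members were lower, by a median of -0.28, and 2 of the 46 lay outside the central 95% of their neighbours.

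**Figure D4:**
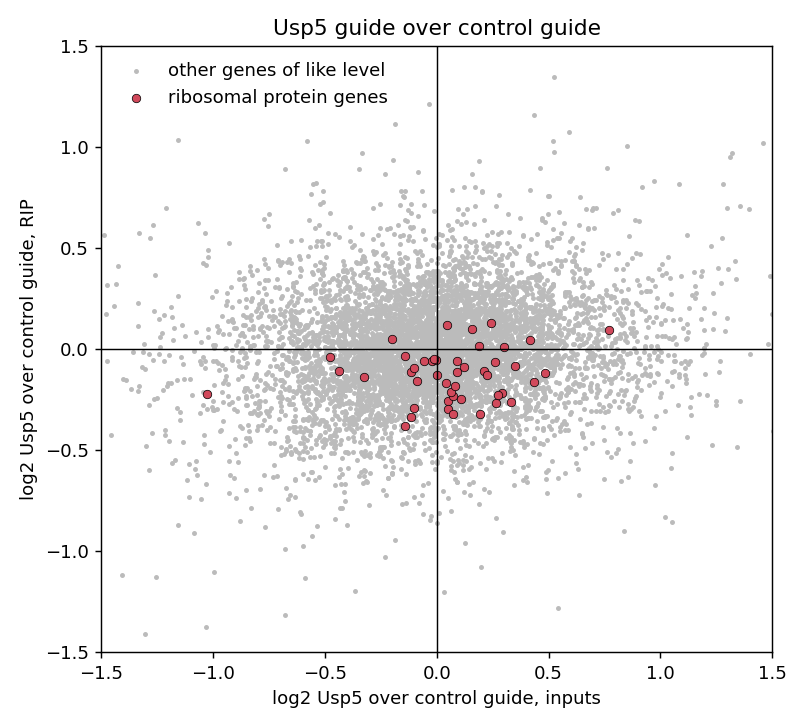
Log2 Usp5 over control guide in inputs (horizontal axis) and RIP libraries (vertical axis) for the 46 ribosomal protein genes (red) and other genes of like level (grey; 42 lie outside the axes). Most red points lie under 0 on the vertical axis and are spread more along the horizontal axis.

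The input and RIP ratios of the guide did not order the members alike. They share no library, and over the 46 genes Pearson's r was 0.18 and Spearman's rho 0.08, beside 0.16 and 0.12 over genes of like level. By sign 24 members (52.2%) differed between the fractions, near the 46.8% of the genes of like level. By counting intervals 19 members (41.3%) were higher in the Usp5 input and lower in the Usp5 RIP, where 12.7% of the genes of like level were. The reverse was seen for 0 members and for 13.4% of those genes. Between inputs the counting intervals of those genes had a median half-width of 0.096, beside 0.045 for the members. Another 11 members (23.9%) were lower in both and 2 (4.35%) higher in both, where 18.1% and 15.7% of the genes of like level were. ENSMUSG00000030744, high in both RIP libraries, was among the 19, with log2 ratios of 0.26 (0.22 to 0.31) between the inputs and -0.27 (-0.30 to -0.23) between the RIP libraries. ENSMUSG00000057841 had 0.35 (0.30 to 0.40) and -0.08 (-0.16 to -0.01).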

How the data were processed

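The authors deposited raw read counts per Ensembl gene ID, 1 column per library. The submitters' processing notes name mm10, HISAT2 2.1.0 and featureCounts 1.6.3. For the annotation release and for strand, multi-mapping and duplicate reads the setting is not given in the sources used here. Columns were matched to samples by the labels' short names, and 0 were left over. The 46 genes and all lists were chosen with earlier results of these data known.

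Counts were scaled with TMM factors (0.926 to 1.06; edgeR 4.0.16, R 4.3.3). A mean of 1 CPM or more was required, which all 46 passed. Log2 ratios have 0.5 counts added and Clopper-Pearson intervals at 95%. RIP against input was fitted with guide as a block, since each guide's lysate gave its input and its RIP, as the labels pair them. The SE is the log2 fold change over the root of F. Guide against control has no test. Other scalings, filters, thresholds and DESeq2 1.42.0 were tried. The code was tested on simulated data. Single genes were taken by rank (extremes of each ratio). Of these, 4 are given by ID, since symbols were not paired. The gene lists fixed by symbol were not analysed here.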

Additional observations from a re-analysis of the deposited data

Results flagged for a closer look

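The median log2 ratio of Usp5 over control was 0.0723 between the inputs and -0.114 between the RIP libraries, so the medians had opposite signs. Single members did not all do so: 24 had opposite signs in the fractions and 22 the same (7 above and 15 below control in both). Summed over the 46 genes the input ratio was -0.04, with the same sign as the -0.11 of the RIP libraries. By counting intervals 19 of the 46 members (41.3%) were above control in the Usp5 input and below it in the Usp5 RIP. Of the genes of like level, whose intervals were wider, 12.7% were. Opposite sides in either order were taken by 26.1% of those genes by interval, and by 46.8% by sign, near the members' 52.2%. The difference was not tested, as each group held 1 library. For 4 members (8.70%) RIP over input lay on opposite sides of input with the control and the Usp5 guide, by counting intervals, beside 10.3% of the genes of like level, which is no more than the background. This was not tested either.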

How the results depend on the processing

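No median of the members changed sign under any setting run (DESeq2, upper-quartile and library-total scaling, TMM without the members, 2 counts added, no filter, a mean of at least 5 CPM). Library totals moved the median log2 RIP over input to -0.11 with the control guide and -0.27 with the Usp5 guide, the tested median from -0.39 to -0.23 and the median between inputs to 0.14. By size they gave 2 higher and 0 lower members with the control guide, 3 lower with the Usp5 guide and 0 lower between inputs. DESeq2 size factors gave 6 lower with the control guide. The shares of all genes past 2-fold under these scalings were not counted here. At 1.5-fold, 3 were higher and 14 lower (6.52% and 30.4%; genes of like level 22.8% and 24.8%) with the control guide and 2 and 18 (4.35% and 39.1%; 19.9% and 21.8%) with the Usp5 guide. Of all genes 29.3% were higher and 26.8% lower with the control guide, and 27.0% and 25.1% with the Usp5 guide. Between inputs 1 member was higher at 1.5-fold (like level 8.47%, all genes 19.9%). In the difference 1 was higher (like level 10.3%, all genes 20.7%) and 4 lower (like level 10.6%, all genes 21.7%). Medians against genes of like level moved by less than the counting intervals within 0.25 and 1 log2 CPM. Other scalings cannot check these medians, since a scaling shifts all ratios of a comparison alike. Without the replicate block (no pairing by guide), edgeR called 2 members higher and 15 lower (7.84% and 9.37% of all genes), with a median of -0.39. DESeq2 with the same terms called 3 and 21 (9.80% and 11.8%). Leaving out a library was not run, as each group held 1. Leaving out members with pseudogene rows was not run, as rows have no symbols.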
